A study of Glycine max with 12 samples.

Results

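NAC transcription factors of soybean (Glycine max) roots were followed on 12 Affymetrix arrays. The members are the probe sets in the array's main category whose gene title holds NAC or CUP-SHAPED COTYLEDON, without the nascent polypeptide-associated proteins. The rule took 121 probe sets of 66195, which the annotation assigns to 122 genes of 35095 in all. It used titles only and no measured value.

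NAC proteins are plant-specific transcription factors that share a conserved DNA-binding domain at the N terminus and differ in the C-terminal part that activates or represses target genes. In Arabidopsis, different members set organ boundaries, start lateral roots, drive the wall thickening of fibres and vessels, time senescence, or answer drought, salt, hypoxia and DNA damage. Some are held at membranes by a C-terminal anchor and reach the nucleus after release. Aluminium ions are taken up at root tips in acid soil and stop root growth.

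The study compared the Al-sensitive variety Guangfengmaliaodu, written GF, with the Al-tolerant variety KF. Seedlings germinated in sand stood in 0.5 mM CaCl2 at pH 4.3, with 25 µM AlCl3 (Al roots) or with none (control roots), and roots were harvested after 6, 12 and 24 h. All 12 groups shared the acid calcium solution, so the control is an acid control. Each combination of variety, treatment and time had 1 array. No condition was repeated, so every p-value below measures the spread of a difference between times and varieties, and a difference within a single pair of arrays has no test. KF and GF are 2 genotypes, and sequence differences under the probes were not tested.

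The values are the deposited intensity values on a linear scale, and differences are given as log2 of Al over control. The reference for background was the 95th percentile of 23 probe sets with sequences absent from genomes, taken in each array. By it, 2479 to 8185 main probe sets lay above background per array. The lowest count came from the GF 24 h control array, whose background level was also the highest of the 12. Root endodermis markers (casparian strip membrane proteins) were above background for 0 to 3 of 9 probe sets per array, with summed values of 166 to 287 in control roots and 30.6 to 316 in Al roots. Leaf photosynthesis titles had 2 to 3 of 55 probe sets above background, with sums of 707 to 853 in control and 310 to 769 in Al roots. Seed storage titles had 0 of 23 above background in any array. Of 3 leghemoglobin titles, 1 lay above background in each array, and that one is a leghemoglobin reductase, with sums of 202 to 269 in control and 74.2 to 234 in Al roots. The part of these shifts in the results below was not tested, and in whole roots fewer cells of a type and less RNA per cell cannot be told apart.

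Most NAC members were dim in control roots. Between 1 and 7 of the 121 lay above background in a control array, against 12 to 32 in an Al array. The count of 1 came from the GF 24 h control array, and the other control arrays had 5 to 7. Of all main probe sets, 3.74% to 12.4% lay above background in control arrays and 8.58% to 12.3% in Al arrays. Over all arrays, 85 members were above background in none, 28 in at least 1 Al array but no control array, and 8 in a control array. NAC14 (chromosome 18, 62217469 to 62219181) was the 1 member above background in all 12 arrays. Levels of different probe sets depend on their probes and are not compared here as amounts of RNA.

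NAC14, LOC100170751 and LOC100820105 had the highest mean values. For NAC14 the values at 6, 12 and 24 h were 195, 133 and 192 in GF control roots and 324, 158 and 152 in KF control roots. With Al they were 384, 344 and 396 in GF and 337, 306 and 413 in KF. The groups overlapped through the KF 6 h control alone, and the log2 difference of 0.97 ± 0.20 (SE, 6 pairs) passed the test (limma, Benjamini-Hochberg adjusted p = 0.0171).

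Al raised many NAC members and lowered 1. Of the 94 members kept by the signal filter and tested, 35 rose and 1 fell over both varieties (limma, Benjamini-Hochberg adjusted p below 0.05 over 49646 probe sets). That is 38.3% of the tested members, where 15.4% of all tested probe sets passed. Of all, 7.3% rose and 8.11% fell. The median log2 difference was 0.62 for the members and -0.04 for all tested probe sets. They include LOC100814504 of the stress-linked ATAF type and LOC100170751, with log2 differences of 3.44 and 3.18 and some control arrays above background. LOC100791680 with a title of Arabidopsis NAC8 type, the cell-death factor NAC6, and the ATAF-type NAC018 had fitted differences of 4.91, 4.27 and 3.91, all from control values below background, so their order against the others is not fixed.

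A tested member need not lie above background, since the filter cut, a mean log2 of 1.12, was below the background level of every array. The 27 members left out were those in the lowest 25% of main probe sets by mean signal. Their highest deposited value was 3.60, and for none of them did the 6 Al arrays all lie on one side of the 6 control arrays. A member could pass the filter through its Al values alone, so shares over the tested members lean towards those that rose. With no filter, 33 of all 121 members were called, 32 up and 1 down, with a median of 0.33. The share of all probe sets called without the filter is not given here, so this count does not show how far the shares lean.

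Of the 35 rises, 32 were positive in 6 of 6 pairs and 3 in 5 of 6 pairs. In 27 the mean rise was at least 2-fold. The 6 Al arrays all lay above the 6 control arrays for 27 tested members, 28.7% against 5.59% of all probe sets, and all below for 0 members against 3% of all. Of these 27, 26 were among the called rises. For 29 of the 35 rises no control array was above background, so their log2 differences rest on control values that carry little signal. For 10 of these 29 no Al array was above background either, so these 10 were at background in all 12 arrays. Measured against the background itself, 12 of the 29 rose by at least 1.01-fold to 2.20-fold, and the other 17 allow no bound above 1. The calls moved with single pairs: 18 members were called when the 12 h pair of KF was left out, 19 when the 24 h pair of GF was, and 6 with both 12 h pairs gone.

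**Figure D1:**
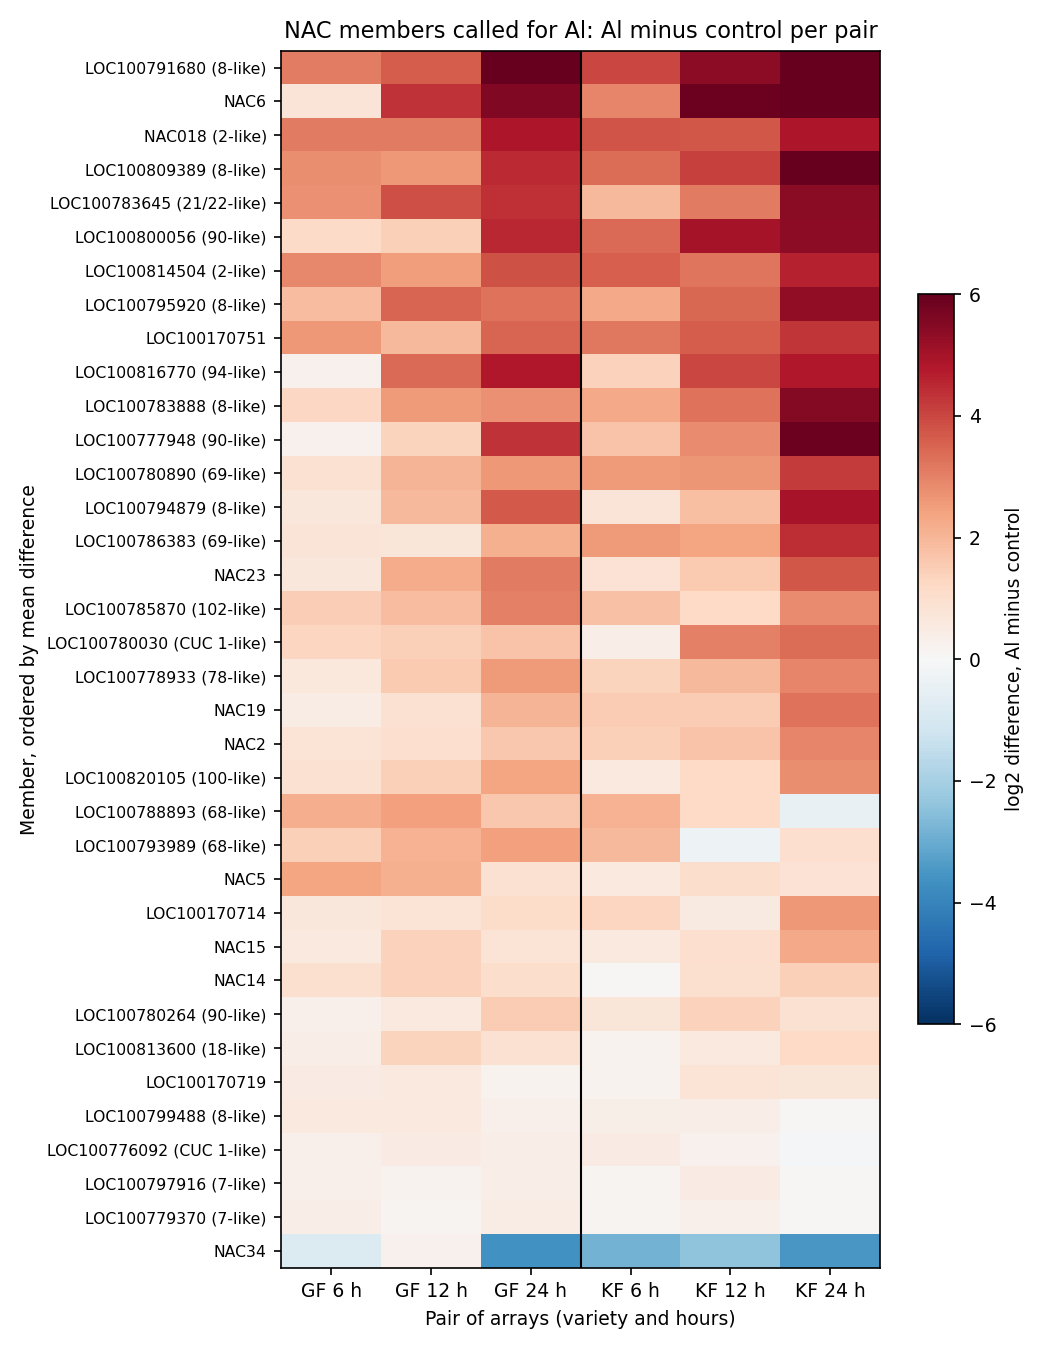
Each row is a member called for Al over both varieties, ordered by mean difference, and each column is a pair of arrays; the colour gives the log2 difference, Al minus control, with the same limit of 6 on both sides. The 35 rises fill the upper rows in both varieties, with the deepest colours at 24 h, and NAC34 is the 1 row in blue.

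ATAF-type members are named for Arabidopsis factors that answer wounding, drought and abscisic acid. Of 4 tested, 3 rose, with a median log2 difference of 2.73 over the 4. The pair with the title of NAC2 type, the number of Arabidopsis ATAF1, led them.

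LOC100814504 lies on chromosome 4, 44933879 to 44935725, at locus GLYMA04G38560 (assembly V1.0 in the array annotation, as are all coordinates here). Its deposited values at 6, 12 and 24 h were 32.3, 51.8 and 47.5 in GF control roots and 27.7, 29.4 and 34.6 in KF control roots. With Al they were 237, 291 and 669 in GF and 336, 273 and 855 in KF. Each Al array was above every control array, and the 24 h values were the highest in both varieties. The log2 difference was 3.44 ± 0.27 (SE, 6 pairs; limma, Benjamini-Hochberg adjusted p = 0.000389).

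NAC018 lies on chromosome 6, 12910373 to 12912215, at GLYMA06G16440. Control values were 5.96, 6.51 and 4.99 in GF and 5.86, 4.11 and 6.11 in KF. Al values were 51.1, 57.3 and 145 in GF and 80.1, 54.96 and 176 in KF. All 6 Al arrays were above background and no control array was, so the rise was at least 2.10-fold. The fitted log2 difference was 3.91 ± 0.28 (limma, Benjamini-Hochberg adjusted p = 0.000256). Both calls held in each of 15 alternatives, where the highest adjusted p was 0.0145 for LOC100814504 and 0.0147 for NAC018 (limma).

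LOC100785870, whose title names Arabidopsis NAC102, a factor of the hypoxia response, rose by 2.02 ± 0.26 (limma, Benjamini-Hochberg adjusted p = 0.00376). NAC165, the third title of NAC2 type, had a log2 difference of -0.10 and did not pass. The titles naming NAC72 and NAC55 had too little signal to be tested.

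Titles naming NAC8, the Arabidopsis number with the most probe sets tested, also gave the most rises. By share of those tested they did not lead, since 2 of 3 NAC2 titles and 2 of 3 NAC68 titles rose. The NAC68 share leans on the filter, since only 3 of 8 probe sets with a NAC68 title were tested. Arabidopsis NAC8 is SOG1, the transcription factor that switches on DNA repair and cell cycle arrest genes after DNA damage. Of 12 probe sets with a NAC8 title 11 were tested and 6 rose, where 7.3% of all tested probe sets rose. Their differences ran from -0.15 to 4.91, with a median of 1.24 over the 11.

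LOC100791680 (chromosome 13, 33325847 to 33330047, GLYMA13G30800) had the largest fitted difference of all members, from control values below background in every array. Control values were 2.83, 2.66 and 2.28 in GF and 3.09, 1.97 and 2.61 in KF. Al values were 23.5, 33.5 and 169 in GF and 49.8, 80.6 and 385 in KF. The groups were far apart, and the Al values climbed with time in both varieties. Of the 6 Al arrays 4 were above background, and against background the rise was at least 1.94-fold. The fitted log2 difference was 4.91 ± 0.52 (limma, Benjamini-Hochberg adjusted p = 0.00163).

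LOC100809389 (chromosome 15, 6001947 to 6005282) went from control values of 2.45 to 4.14 to Al values of 16.9, 16.8 and 80.3 in GF and 42.3, 42.2 and 219 in KF. The log2 difference was 3.89 ± 0.42, at least 1.15-fold against background (limma, Benjamini-Hochberg adjusted p = 0.00166). LOC100795920 (chromosome 7, 37169276 to 37172865) went from 3.59 to 7.16 to 21.99, 40.9 and 51.9 in GF and 35.1, 64.9 and 202 in KF, a difference of 3.28 ± 0.40 (limma, Benjamini-Hochberg adjusted p = 0.00289). In both genes no Al value fell within the range of the controls. LOC100783888 rose by 2.93 ± 0.47 and LOC100794879 by 2.30 ± 0.54, and LOC100799488 by 0.38 ± 0.10. The LOC100791680 and LOC100809389 calls held in each of 15 alternatives (limma, highest adjusted p = 0.0403 and 0.0343). Without the 12 h arrays LOC100795920 no longer passed (limma, adjusted p = 0.0662, range over its alternatives 0.000315 to 0.0662).

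**Figure D2:**
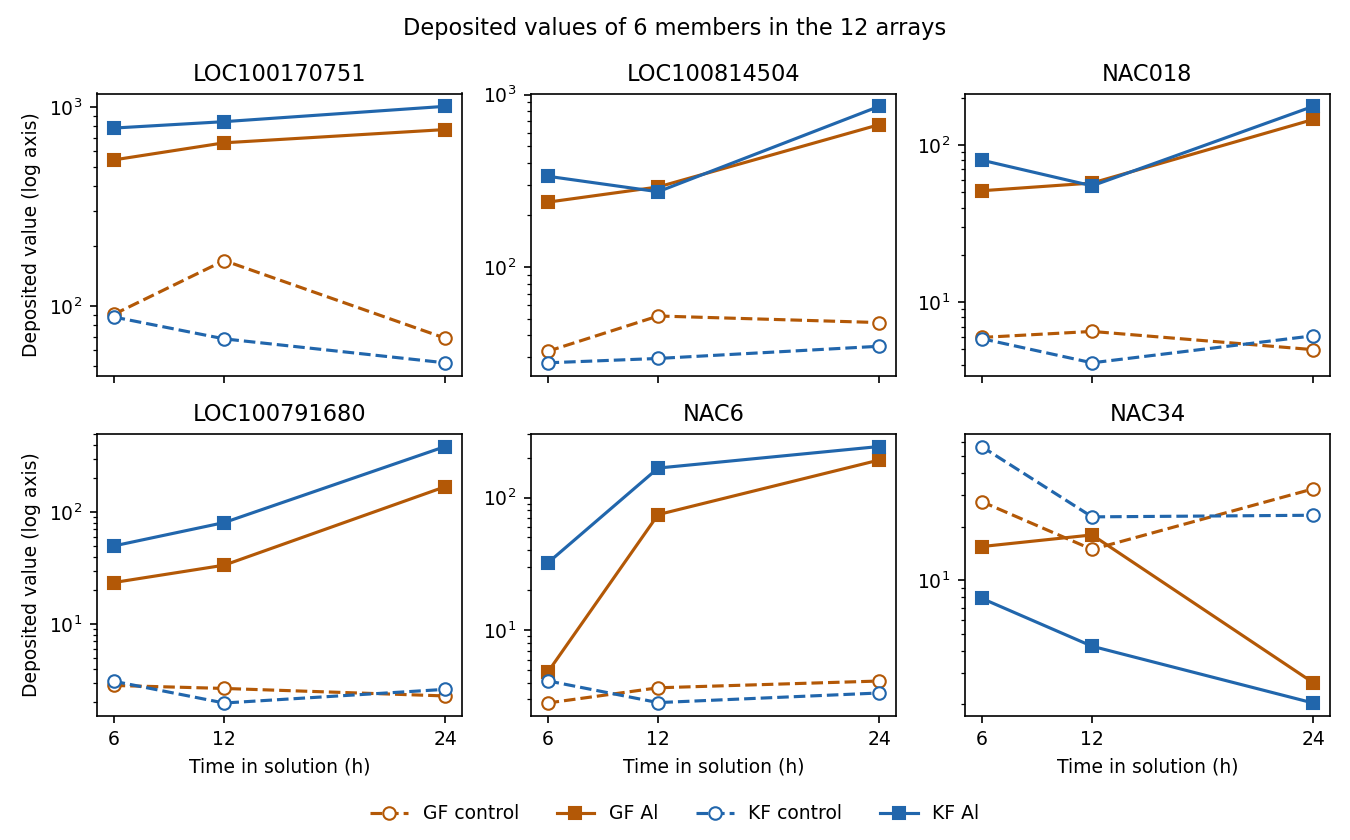
Deposited values (log axis) of 6 members against hours in solution, with GF in orange and KF in blue, open circles and dashed lines for control roots and filled squares for Al roots; each point is 1 array. In all panels but that of NAC34 every Al array lies above every control array, and LOC100791680 in KF reaches 385 at 24 h.

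Soybean members known only by a soybean number gave 10 rises and 1 fall of 20 tested, with a median of 1.12. NAC6, a soybean factor linked to cell death under endoplasmic reticulum and osmotic stress, lies on chromosome 12, 1655863 to 1658091 (GLYMA12G02540). Its control values were 2.82, 3.67 and 4.13 in GF and 4.15, 2.84 and 3.36 in KF. With Al they were 4.80, 74.4 and 192 in GF and 32.04, 167 and 243 in KF. At 6 h the GF value lay just above the controls, while KF was already several-fold higher, and by 12 h both varieties were far above. The log2 difference was 4.27 ± 0.67, at least 1.69-fold against background (limma, Benjamini-Hochberg adjusted p = 0.00720). Without the 12 h arrays it missed the threshold (limma, adjusted p = 0.0959, range over its alternatives 0.00165 to 0.0959).

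LOC100170751 (chromosome 5, 37649790 to 37651578, named NAC32 in the array annotation) was among the brightest members in control roots. Control values were 90.7, 169 and 68.9 in GF and 88.1, 68.4 and 51.8 in KF. Al values were 542, 661 and 770.3 in GF and 784, 844 and 1008 in KF. Of the control arrays 5 of 6 were above background, so this rise was measured on both sides, and the groups did not overlap. The log2 difference was 3.18 ± 0.28 (limma, Benjamini-Hochberg adjusted p = 0.000750).

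NAC23, NAC19, NAC2, NAC5, LOC100170714, NAC15 and LOC100170719 also rose, by 2.03 for NAC23 down to 0.50 for LOC100170719. NAC5 went from 3.60 to 5.26 in control roots to 23.0, 23.0 and 8.90 in GF and 7.78, 7.56 and 8.31 in KF. Its Al values were highest in GF at 6 and 12 h. None of its 12 values was above background.

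NAC34 (chromosome 8, 13867946 to 13872722) was the 1 member that fell. Control values were 27.7, 14.9 and 32.6 in GF and 56.4, 22.7 and 23.2 in KF. Al values were 15.4, 17.96 and 2.65 in GF and 7.91, 4.25 and 2.04 in KF. It was lower with Al in 5 of 6 pairs and higher in GF at 12 h, and the groups overlapped in GF. The log2 difference was -2.16 ± 0.51 (limma, Benjamini-Hochberg adjusted p = 0.0268). Only 1 of its 6 control arrays was above background, and no fall among the members was called without the KF 6 h, KF 12 h or GF 24 h pair. It is named although it did not move one way in every pair. Among members that did, the largest falls did not pass: -0.34 for LOC100788671 with a title of CUP-SHAPED COTYLEDON 2, -0.22 for LOC100170721 and -0.15 for LOC100797459 (limma, adjusted p = 0.105, 0.0641 and 0.160).

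Membrane-bound-type members carry titles of Arabidopsis NAC68, NAC69 or NAC78, which are anchored to membranes until they are released. Of 9 tested, 5 rose and none fell, with a median of 1.44. LOC100780890, with a title of NAC69 type on chromosome 16, rose by 2.497 ± 0.352 (limma, Benjamini-Hochberg adjusted p = 0.00498). Its control values of 3.24 to 6.00 became 8.85, 21.8 and 35.98 in GF and 20.9, 20.4 and 59.8 in KF.

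The other rises of this type were LOC100786383 at 2.16, LOC100778933 at 1.82, LOC100788893 at 1.51 and LOC100793989 at 1.44. LOC100778933, a title of NAC78 type, went from 12.2 to 16.998 in control roots to 25.9, 50.2 and 72.9 in GF and 34.6, 48.4 and 93.5 in KF, with no overlap. LOC100788893 and LOC100793989, both with a title of NAC68 type, each had 1 KF pair in which Al was lower, at 24 h and at 12 h respectively. The probe set of LOC100793989 can bind several genes.

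The largest title group, 24 probe sets of boundary and lateral root type, gave 4 rises among 17 tested, where 7.3% of all tested probe sets rose. The median of the type was 0.37. The type takes in CUP-SHAPED COTYLEDON factors, which set organ boundaries in Arabidopsis, NAC100 titles, and NAC21/22 titles, the Arabidopsis NAC1 of auxin-driven lateral root growth. LOC100783645, with a NAC21/22 title on chromosome 10, 3333604 to 3338682, had the largest fitted difference of them. Control values were 6.64, 6.75 and 7.87 in GF and 12.0, 5.83 and 6.29 in KF. Al values were 44.2, 99.4 and 162 in GF and 45.4, 50.5 and 269 in KF. All 6 Al arrays were above background and no control array was, and the rise was at least 2.20-fold, the highest such bound among the 29 rises with no control array above background. The fitted difference was 3.57 ± 0.41 (limma, Benjamini-Hochberg adjusted p = 0.00233), and without the 12 h arrays it missed the threshold (limma, adjusted p = 0.0560, range over its alternatives 0.000306 to 0.0560).

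LOC100820105, with a NAC100 title, was 1 of the 3 brightest members. Its control values were 89.8, 70.6 and 56.8 in GF and 106, 76.9 and 67.9 in KF, and its Al values 167, 192 and 295 in GF and 159, 175 and 467 in KF. The groups did not overlap, and the difference was 1.55 ± 0.30 (limma, Benjamini-Hochberg adjusted p = 0.0150). LOC100820105 was the 1 NAC100 title that rose, of 7 tested. Of 8 tested CUP-SHAPED COTYLEDON titles 2 rose, LOC100780030 by 1.87 and LOC100776092 by 0.32, and no array was above background for either. Over all tested probe sets 7.3% rose, so 1 rise among 7 and 2 among 8 do not set these titles apart.

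Titles naming NAC90 had 3 rises among 6 tested, where 7.3% of all tested probe sets rose. LOC100800056 (chromosome 3, 42734623 to 42736500) had control values of 3.93, 3.86 and 4.63 in GF and 3.44, 2.33 and 3.88 in KF. Its Al values were 8.74, 10.4 and 106 in GF and 36.4, 73.6 and 160.1 in KF. Every Al value was above the controls, but GF stayed low until 24 h. The log2 difference was 3.48 ± 0.59 (limma, Benjamini-Hochberg adjusted p = 0.00932), and it missed the threshold without the 12 h arrays (limma, adjusted p = 0.0683, range over its alternatives 0.00199 to 0.0683). LOC100777948 rose by 2.73 and LOC100780264 by 0.90. The 3 probe sets with a NAC94 title, set with the root cap factors by their number, included 1 rise, LOC100816770 by 3.11 ± 0.60 (limma, Benjamini-Hochberg adjusted p = 0.0148).

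Wall and vessel types, with titles of Arabidopsis NAC7 (the vessel factor VND4) and NAC43 (the fibre factor NST1), gave 2 rises among 13 tested, 15.4% where 7.3% of all probe sets rose. They were LOC100797916 by 0.28 and LOC100779370 by 0.25, with no array above background, and the median of the type was 0.23. None of the 15 probe sets of this type, 13 of them tested, had Al and control arrays apart without overlap. Of all tested probe sets, 5.59% had Al all above and 3% all below, so a count of 0 among so few does not set the type apart. The brightest by mean value, NAC153 and LOC100807338, were above background in no array and had differences of 0.37 and -0.11, which did not pass. Senescence types, among them the NAC29 titles named for the leaf senescence factor NAP, gave 1 rise among 9 tested. It was LOC100813600, with a NAC18 title, by 0.77 on a probe set that can bind several genes. Of the 5 tested NAC29 titles 0 rose. Beside 7.3% of all probe sets, 1 rise among 9 does not set the type apart. Neither of the titles naming NAC42 (the longevity factor JUB1) passed.

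**Figure D3:**
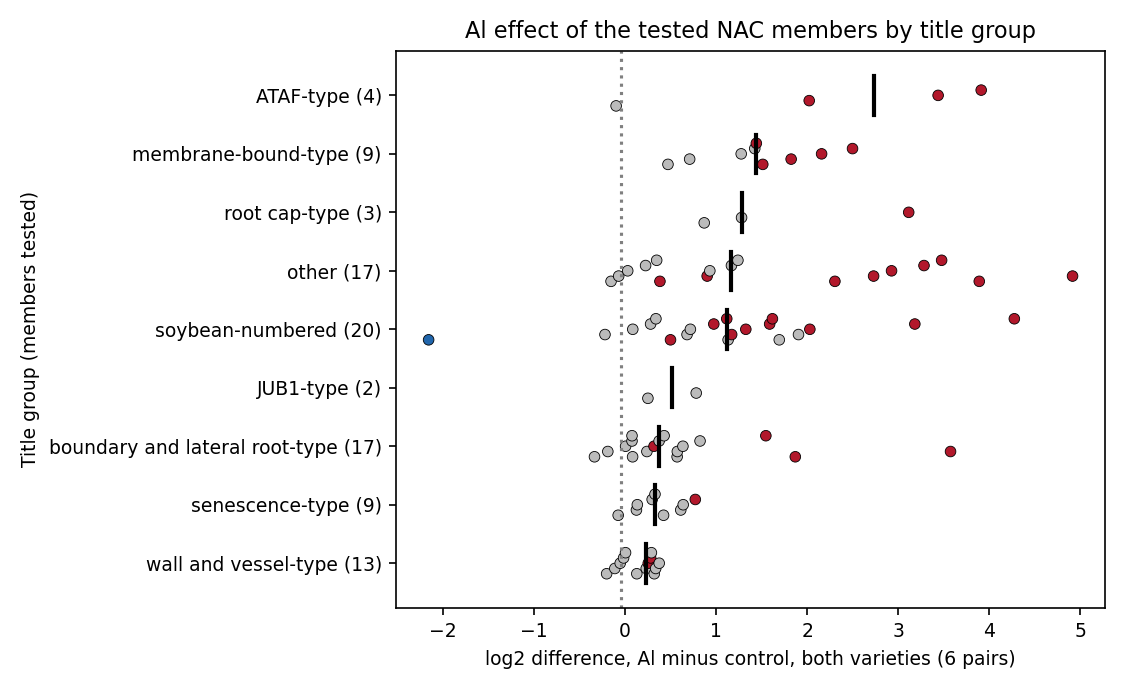
Log2 difference, Al minus control over both varieties, of each tested member by title group; red points rose, the blue point fell, grey points did not pass, black bars are group medians and the dotted line is the median of all tested probe sets (-0.04). Medians run from 2.73 in the ATAF type to 0.23 in the wall and vessel type.

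More members were higher with Al at later times in both varieties. In single pairs, which carry no test, 19 members (20.2%) were at least 2-fold higher with Al in the GF 6 h pair. That number grew to 29 (30.9%) by 12 h and 41 (43.6%) by 24 h, and KF went from 22 (23.4%) through 30 (31.9%) to 49 (52.1%). Over all tested probe sets the shares were 3.33%, 5.02% and 8.76% in GF and 3.64%, 5.75% and 11.3% in KF. At least 2-fold lower were 0, 0 and 1 members in GF and 1 at each time in KF, where all probe sets gave 1.97%, 2.41% and 5.51% in GF and 2.41%, 5.87% and 14% in KF.

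In both varieties the endodermis and photosynthesis sums were also lowest in the 24 h Al array. Endodermis markers summed to 65.7 in GF and 30.6 in KF with Al at 24 h, against 260.5 and 183 in the controls, and photosynthesis titles to 399 and 310.006 against 769 and 707. At 6 and 12 h the endodermis sums with Al were 266 and 301 in GF and 75.4 and 316 in KF, and the photosynthesis sums 697 and 769 in GF and 661 and 606 in KF. Their part in the member counts was not tested.

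**Figure D4:**
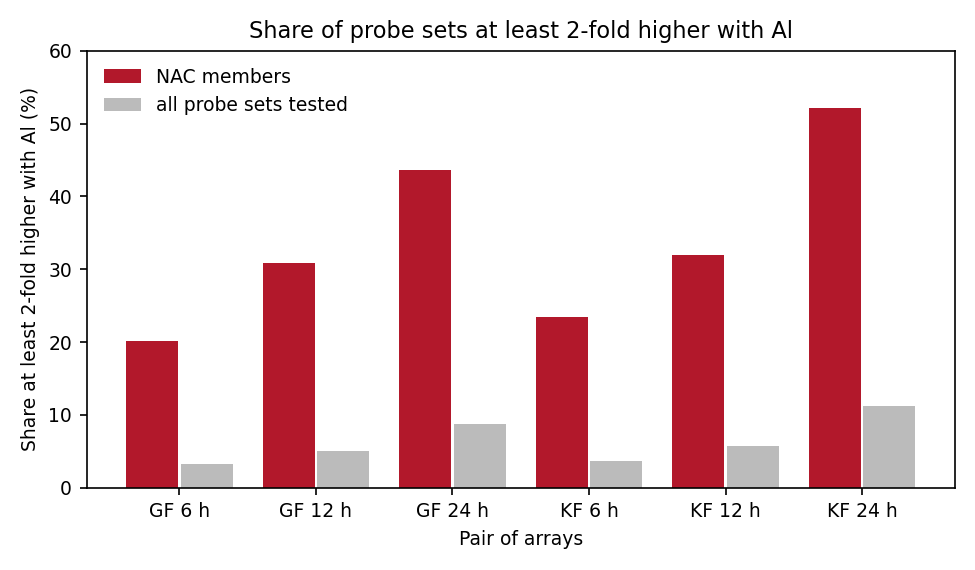
Share (%) of the 94 tested members, in red, and of all 49646 tested probe sets, in grey, that were at least 2-fold higher with Al in each pair of arrays. The member share grows from 20.2% to 43.6% in GF and from 23.4% to 52.1% in KF.

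By 6 h, 13 members were at least 2-fold higher in both varieties, against 1.79% of all probe sets. Of these, 10 were at least 2-fold higher in all 6 pairs (1.3% of all): LOC100814504 and NAC018, LOC100785870, LOC100783645, LOC100170751, LOC100800056 and the NAC8 titles LOC100791680, LOC100809389, LOC100795920 and LOC100783888. At 24 h, 38 members reached 2-fold in both varieties (6.92% of all), and 16 of them had not in either variety at 6 h (4% of all). For 9 members the step came after 12 h in both varieties (2.64% of all).

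In a test of the difference itself, the Al effect was larger at 24 h than at 6 h for 15 members and smaller for none, 16% of those tested where 2.12% of all probe sets passed, 1.95% larger and 0.171% smaller (limma, Benjamini-Hochberg adjusted p below 0.05). Of the 15, 14 had no control array above background and 5 had no array above it, so most of these sizes rest on values that carry little signal and are not ranked here. LOC100816770 (NAC94 title, chromosome 11, 7351787 to 7354364) had Al values of 2.08, 18.8 and 47.98 in GF and 4.39, 24.8 and 45.5 in KF, and its control values were 1.55 to 1.77. Both 24 h Al values and no others were above background. Its fitted Al effect was 3.97 ± 0.42 larger at 24 h (limma, Benjamini-Hochberg adjusted p = 0.00639). The NAC42 title NAC42-2, on a probe set that can bind several genes, stayed between 3.46 and 5.48 in all arrays but the 24 h Al arrays, at 31.4 in GF and 30.03 in KF. Only the GF 24 h value lay above background. The fitted late step was 2.81 ± 0.29 (limma, Benjamini-Hochberg adjusted p = 0.00602).

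The probe set of NAC11 and NAC12 (chromosome 16, 4017208 to 4019480) had Al values of 2.23, 2.72 and 20.5 in GF and 2.95, 4.57 and 130.5 in KF, with control values of 2.02 to 2.89. Only the KF 24 h Al value lay above background. The fitted difference between 24 h and 6 h was 4.49 ± 0.85 (limma, Benjamini-Hochberg adjusted p = 0.0483). NAC6 missed the threshold in this comparison at 3.998 ± 0.782 (limma, adjusted p = 0.0550), having risen in KF at 6 h. The early ATAF-type members did not pass, with 1.42 ± 0.39 for NAC018 (limma, adjusted p = 0.131). The time comparison rests on 2 pairs per time: 0 members were called when the 6 h pair of GF was left out and 1 when that of KF was. Leaving out either 12 h pair, or both, gave 4 calls, and leaving out the 24 h pair of GF gave 40. The shares of all probe sets called in these settings are not given here, so the counts do not show a change particular to the members.

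Within the sensitive variety GF, 4 members rose and none fell, 4.26% of the tested members where 0.828% of all probe sets were called, 0.719% up and 0.109% down (limma, Benjamini-Hochberg). They were NAC018 at 3.6999 ± 0.4031, LOC100814504 at 3.06 ± 0.36, LOC100170751 at 2.68 ± 0.34 and NAC5 at 1.81 ± 0.29 (SE, 3 pairs; adjusted p = 0.0130, 0.0160, 0.0211 and 0.0455). In the tolerant variety KF, 16 rose and NAC34 fell by 2.92 ± 0.65 on the log2 scale, 18.1% of the tested members where 5.48% of all probe sets passed, 2.78% up and 2.7% down. The largest fitted rises in KF, none with a control array above background, were LOC100791680 at 5.52 ± 0.72, NAC6 at 5.0004 ± 0.9394 and LOC100800056 at 4.58 ± 0.67 (limma, adjusted p = 0.0111, 0.0314 and 0.0160). Both varieties called 3 members, 75% of the GF calls and 17.6% of the KF calls. The GF count went to 0 when any single GF pair was left out. Leaving out the 12 h pair of KF gave 2 calls in GF, and its 24 h pair 15. For KF, leaving out the 12 h pair of GF gave 9 calls, leaving out its own 12 h pair 3 and its own 24 h pair 11.

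The difference between the varieties' Al effects was tested directly, and no member passed (limma, Benjamini-Hochberg). Of all probe sets 0.00403% were called, 0.00201% in each direction. Without adjustment 5 of 94 members had p below 0.05, 5.32% against 4.43% of all probe sets. The largest differences were 2.22 ± 0.94 for LOC100800056, 1.90 ± 0.65 for LOC100786383 and 1.51 ± 1.31 for LOC100777948, higher in KF. On the other side stood -1.52 ± 0.92 for NAC34, -1.13 ± 0.62 for LOC100788893 and -1.10 ± 0.60 for LOC100793989 (limma, adjusted p = 0.953 for each of these 6).

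In control roots 2 members differed between varieties, both lower in KF, 2.13% where 1.26% of all probe sets passed, 0.826% higher and 0.435% lower in KF (limma, Benjamini-Hochberg). Both belong to a run of 3 neighbouring NAC genes on chromosome 7, 3988721 to 4016611: LOC100778190 (NAC69 title), LOC100785870 (NAC102 title) and LOC100786383 (NAC69 title), with gaps of 9.10 and 12.4 kb.

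LOC100786383 had control values of 18.2, 22.3 and 12.4 in GF and 6.08, 4.05 and 3.93 in KF. With Al the values were 31.05, 37.02 and 53.4 in GF and 35.5, 20.6 and 85.1 in KF. The varieties were apart in control roots and overlapped with Al, but the direct test between their Al effects did not pass (limma, adjusted p = 0.953). The log2 difference, KF minus GF, was -1.90 ± 0.30 in control roots and 0.01 ± 0.30 in Al roots (SE, 3 pairs; limma, adjusted p = 0.0191 and 0.996).

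LOC100785870 had control values of 10.8, 14.5 and 7.57 in GF and 3.03, 2.96 and 3.41 in KF. Its Al values were 29.8, 51.5 and 62.3 in GF and 10.3, 6.69 and 24.5 in KF. KF was lower at every time in both solutions, by -1.76 ± 0.32 in control roots and -1.94 ± 0.32 in Al roots (limma, adjusted p = 0.0402 and 0.0199). LOC100778190 had a difference of -0.11 ± 0.14 in control roots, which did not pass, and was 1.02 ± 0.14 higher in KF with Al (limma, adjusted p = 0.797 and 0.00885). No control array was above background for any of the 3 genes, so the control differences lie among weak signals. Within 100 kb of the run there were 17 other tested probe sets, and 0 of them was called in either solution. Over all probe sets 1.26% were called in control roots and 2.25% in Al roots. At such low shares, 17 probe sets cannot show whether the difference is limited to the NAC genes. Leaving out any one control pair took the count of control differences to 0, and leaving out the 6 h Al pair took it to 1.

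**Figure D5:**
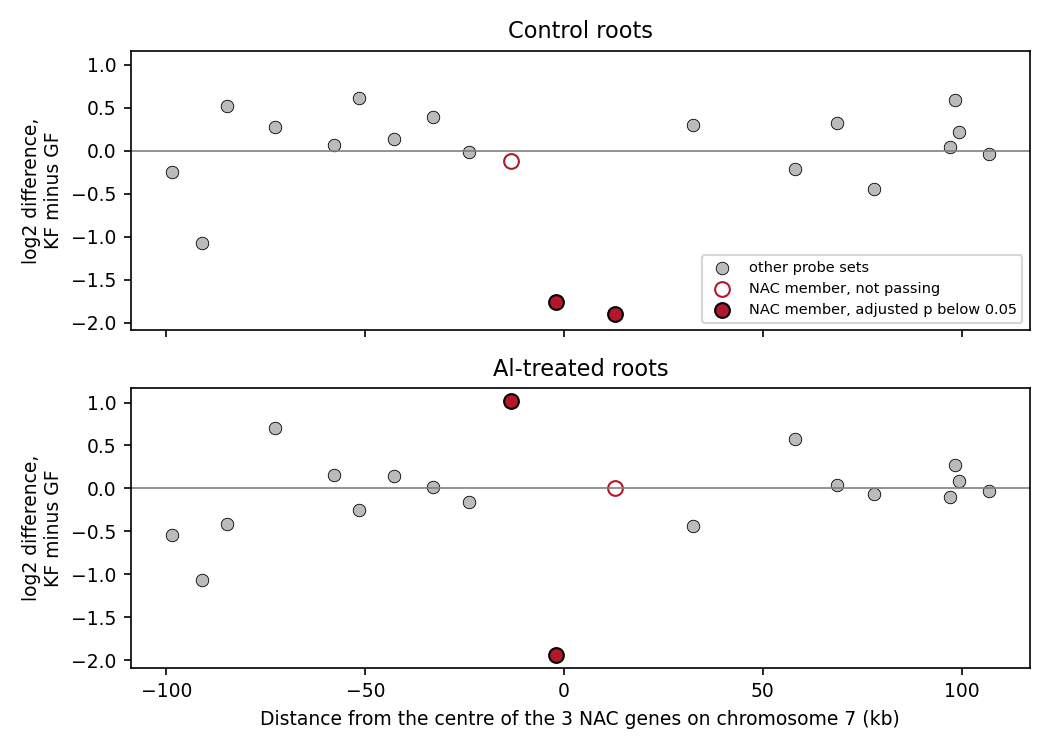
Log2 difference, KF minus GF, of the tested probe sets around 3 neighbouring NAC genes on chromosome 7 against the distance from their centre (kb), in control roots (top) and Al roots (bottom); filled red points passed the test. LOC100785870 is low in both panels, and the 17 grey points did not pass. LOC100786383 is low in control roots and at 0.01 in Al roots, a change that did not pass the direct test.

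In Al roots 7 members were higher in KF and 1 was lower, 8.51% where 2.25% of all probe sets passed, 1.24% higher and 1.02% lower in KF (limma, Benjamini-Hochberg). The NAC90 titles LOC100800056 and LOC100777948 were higher by 1.82 ± 0.36 and 1.52 ± 0.15 (adjusted p = 0.0359 and 0.00176, limma). The NAC8 titles LOC100783888, LOC100809389 and LOC100791680 were higher by 1.70 ± 0.34, 1.37 ± 0.20 and 1.18 ± 0.18, and NAC19 by 1.01 ± 0.19 (adjusted p = 0.0390, 0.0123, 0.0144 and 0.0294, limma). Between 1 and 4 of the 6 Al arrays were above background for each of these 6 genes. Each was higher in KF at 3 of 3 times. In control roots the largest difference higher in KF at every time was 0.38, for another gene, NAC175, and did not pass. These values do not show a variety difference particular to Al roots, since no member passed the direct test between the varieties' Al effects. The count ran from 4 without the 6 h control pair to 8, and was 5 without the 6 h Al pair, the 12 h control pair or the 12 h Al pair.

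Time in the acid solution alone changed no member by the test (limma, Benjamini-Hochberg, 0 called of 94 and 0% of all). Without adjustment 12 members had p below 0.05, 12.8% of those tested against 12.7% of all probe sets. NAC175 had the largest difference, 24 h minus 6 h, of -1.01 ± 0.20, followed by -0.65 ± 0.24 for LOC100820105 and -0.59 ± 0.36 for LOC100786383. The largest positive values were 0.66 ± 0.29 for NAC155, 0.63 ± 0.21 for LOC100788671 and 0.51 ± 0.17 for LOC100798002 (limma, lowest adjusted p of these 6 = 0.265). NAC155, with a CUP-SHAPED COTYLEDON 3 title, was read here on a probe set that can bind several genes, and its second probe set was too dim to test.

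Genes that act with NAC factors in Arabidopsis were looked up by title. Of the titles matched to a list for DNA damage, the setting in which SOG1 acts, 2 of 50 rose and 10 fell, with a median of -0.21. Over all tested probe sets 7.3% rose and 8.11% fell. The title words include poly [ADP-ribose] polymerase, and not every match need be a DNA damage gene. They included a ribonucleotide reductase small chain, LOC100820622, at -1.65, and a BRCA1 homolog, LOC100804958, at -1.45, while the SRO5-like LOC100813999 rose by 1.91. That SRO5-like title is also in the list of RCD1-like genes, named for a protein that binds membrane-bound NAC factors. Its rise is therefore not read here as one of DNA damage genes. Of 8 RCD1-like probe sets 2 rose and 1, LOC100791977, fell by 1.19 on the log2 scale, with a median of 0.47, and 5 of the 8 are in the DNA damage list too. LOC100804972 of both lists had 1.64 and did not pass.

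Of 5 tested genes of the mitochondrial retrograde list, 1 rose, with a median of 0.40. It was AOX3, an alternative oxidase, the class of gene that Arabidopsis NAC17 switches on, at 1.62 ± 0.16 (limma, Benjamini-Hochberg adjusted p = 0.00111), while AOX2 at 0.67 and PTOX at 0.40 did not pass. The list was matched by title words, and not every match, PTOX among them, need be a mitochondrial gene. Secondary wall and vessel genes gave 3 rises and 6 falls among 78, with a median of 0.02. Laccases, which polymerise lignin, went both ways, with LOC100814779 at 2.15, LOC100798292 at -1.43 and LOC100815453 at -1.38. Senescence titles gave 2 rises among 8, SAN1A at 0.75 and SGR2 at 0.55, with a median of 0.14, and LOC100800521 at 0.49 did not pass. Over all tested probe sets 15.4% were called here, 7.3% up and 8.11% down, so such small counts do not set these lists apart.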

How the data were processed

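The authors deposited normalized intensity values on a linear scale for 12 arrays. How they were summarised and normalized is not given in the sources used here. Annotation came from the deposited signal table, whose 24 per-sample columns carry no sample's label and stayed unused. Values were log2-transformed. The 25% of main probe sets with the lowest mean log2 (below 1.12) were left out, and 49646 were fitted with limma 3.58.1 (R 4.3.3; lmFit, eBayes with trend), with each variety and time as a block of 1 control and 1 Al array. Variety comparisons used blocks of treatment and time. P-values were adjusted by Benjamini-Hochberg over all fitted probe sets, and residual degrees of freedom were 3 to 5. The script was tested on simulated data. The number of arrays limits the precision.

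All 121 members matched the reference gene table, and 34 symbols were updated from it. Of the members, 10 lie on probe sets able to bind several genes and 3 are assigned more than 1 gene. Each has 8 to 27 probes. NAC155 and NAC166 have 2 probe sets each.

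The members, title groups, pathway lists and tests were chosen with earlier results of these data known. Members named are, per comparison, the 8 largest rises and 6 largest falls that passed and moved one way in every pair, or the 3 largest where fewer passed, the 2 brightest per title group and the 3 brightest of all. Others were named after their values were seen. A bound against background sets the mean of the Al arrays against, per control array, the higher of the background percentile and the member's own value. Alternatives were cyclic loess, other filters, log2(value + 1), no trend, no blocks, each variety alone, single-gene probe sets only, and leaving out pairs and times. Promoter motifs and protein similarity were not analysed here.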

Additional observations from a re-analysis of the deposited data

Results flagged for a closer look

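The Al effect differed between 24 h and 6 h for 15 members in a test of the difference itself (limma, Benjamini-Hochberg adjusted p below 0.05, 2 pairs per time), larger at 24 h in each. The log2 difference of the effects was 4.49 for NAC11,NAC12, 4.13 for LOC100777948, 3.97 for LOC100816770, 3.66 for LOC100781321 and 3.59 for LOC100794879. It was 2.98 for LOC100815663, 2.81 for NAC42-2, 2.79 for LOC100780442, 2.66 for NAC23 and 2.54 for NAC27. It was 1.99 for LOC100812779, 1.84 for LOC100820105, 1.76 for LOC100790503, 1.37 for LOC100806369 and 1.36 for LOC100806421. Of the 15, 14 had no control array above background and 5 had no array above it at all, so these sizes rest largely on values that carry little signal and their order is not a ranking. With no condition repeated, the spread behind these tests is that between varieties.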

How the results depend on the processing

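The median of all probe sets moved from -0.04 to 0.00 under cyclic loess, and that of the members from 0.62 to 0.66. The 36 calls for Al became 18 to 36 when 1 pair was left out and 6 without the 12 h arrays. In GF the 4 calls became 0 to 15 when 1 pair was left out, 7 with a stricter filter at the median signal, 12 with no blocks, 0 without the 6 h or the 12 h arrays, 14 without the 24 h arrays and 10 with GF fitted alone. In KF the 17 calls became 3 to 18 when 1 pair was left out, 28 with no blocks, 0 without the 12 h arrays and 6 with KF fitted alone. For the Al effect at 24 h minus 6 h, the 15 calls became 0 to 40 when 1 pair was left out, 8 with no trend and 4 without the 12 h arrays. The 2 variety differences in control roots became 0 to 2 when 1 pair was left out, 1 with log2(value + 1), 1 with no trend and 0 with no blocks or with the arrays of 6 h or 12 h left out. The 8 in Al roots became 4 to 8 when 1 pair was left out, 0 with no blocks, 3 with the arrays of 6 h left out and 0 with those of 12 h left out. The KF minus GF and control time comparisons gave 0 calls under each alternative run. No value of a named member changed sign. Fewer arrays leave fewer degrees of freedom, and other causes were not tested. The share of all probe sets called in each alternative is not given, so none of these counts shows a change particular to the members. The comparison of both deposited tables was not run because the signal table's columns match no label. The Al tests pair the control and Al arrays of a variety and time, and no block by replicate number could be fitted because each group has 1 array and the labels number no replicates.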

Other observations

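Besides the run of 3 genes on chromosome 7, member probe sets within 100 kb of each other made 7 pairs. On chromosome 16, LOC100820105 and NAC11,NAC12 lie 23.5 kb apart, with Al effects of 1.55 (called) and 1.69 (not called). On chromosome 12, NAC4 at 1.90 lies 20.99 kb from LOC100784578 at 0.13, and neither was called. On chromosome 13, NAC27 at 1.13 and LOC100170710 at 0.68 lie 21.3 kb apart, neither was called over all times, and both reached 2-fold in both varieties at 24 h and not at 6 or 12 h. On chromosome 16, NAC23 at 2.03 (called) lies 63.1 kb from LOC100817074 at 0.33.

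NAC4 was at 5.48 to 8.95 in control roots and had 1 Al value far from the rest, 184 in KF at 24 h. The other Al values were 12.6, 6.87 and 35.6 in GF at 6, 12 and 24 h and 35.1 and 10.1 in KF at 6 and 12 h, so the 12 h arrays were the lowest Al arrays of both varieties. Over both varieties it missed the threshold (limma, Benjamini-Hochberg adjusted p = 0.0528).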
